A study of Mus musculus with 24 samples.

Results

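A set of 10 genes, read as a signature of microglia and of the first component of complement, was followed in the cerebellum. They were C1qa, C1qb, C1qc, Trem2, Tyrobp, Csf1r, Cx3cr1, P2ry12, Tmem119 and Aif1. The genes were taken from a list of 10 symbols and make up 10 of the 54232 genes in the count files, and all 10 passed the filter on low counts. RNA was sequenced from the cerebella of 24 mice at 6 weeks of age, 1 library per mouse, to ask how loss of phosphorylation at the S776 site of ATXN1 changes expression in a knockin model of spinocerebellar ataxia type 1 (SCA1). The mice were on a C57BL/6J background, and the mutant mice carried altered alleles of the endogenous Atxn1 gene. The groups were 8 WT mice (labelled wt), 4 SCA1 mice with an expanded polyglutamine allele and a WT allele (sca1, Atxn1 154Q/2Q), 4 SCA1 S776A mice with the serine replaced by alanine on the expanded allele (sca1-s776a, Atxn1 154Q[S776A]/2Q), 4 S776A double mice with the replacement on both the expanded and the WT allele (double, Atxn1 154Q[S776A]/2Q[S776A]), and 4 WT S776A homozygous mice with the replacement on both unexpanded alleles (2q-s776a, Atxn1 2Q[S776A]/2Q[S776A]).

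Microglia are the resident macrophages of the brain. They survey the tissue through receptors such as CX3CR1 and P2RY12, depend on CSF1R signaling for survival, and are the main source of C1q, the recognition molecule of the classical complement pathway. When they respond to damage, homeostatic genes such as P2ry12 and Tmem119 are usually lowered and genes downstream of TREM2 and its adaptor TYROBP are usually raised.

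In none of the mutant genotypes did these genes differ detectably from WT. Against the WT mice of the same sequencing batch, 0 of the 10 genes were called in any of the 4 mutant groups. A call required a log2 fold change beyond 0.5 in either direction and an adjusted p under 0.01 in edgeR's quasi-likelihood test. Of all 22502 tested genes, 0.173% were called in SCA1, 0.0133% in SCA1 S776A, 0.0267% in S776A double and 0.0% in WT S776A homozygous mice. At an unadjusted p under 0.05 the count was again 0 of 10 in each genotype, where 8.25%, 3.93%, 6.93% and 9.98% of all tested genes passed in the same order. DESeq2 with the batch as a covariate also called 0 of the 10. With 4 mice per group, 9 of the 10 genes had a 95% confidence interval that stayed inside a log2 fold change of 0.5 in either direction in all 4 comparisons, and Aif1, the gene with the fewest counts, did not. In bulk tissue, fewer microglia and less RNA per microglial cell cannot be told apart.

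The genes lie on several chromosomes, and the C1q genes lie side by side. In GRCm38, C1qb (chr4:136880129-136886187), C1qc (chr4:136889804-136893065) and C1qa (chr4:136895917-136898803) are neighbors on the minus strand. Aif1 (chr17:35170991-35176068) and Trem2 (chr17:48346401-48354147) share chromosome 17. P2ry12 (chr3:59216272-59262871), Tmem119 (chr5:113793729-113800516), Tyrobp (chr7:30413760-30417585) and Cx3cr1 (chr9:119901616-120069879) each lie on a chromosome of their own. Exons of Csf1r, P2ry12 and Cx3cr1 overlap those of the opposite-strand genes Hmgxb3, Med12l and Gm33858, and the libraries do not mark strand. For Csf1r the counts of the separate strands summed to between 1.3 and 1.52 times the unstranded count used here, whereas for the other 9 genes the sum was within 1.0 to 1.02 times.

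The promoters of 3 genes are shown because the genes share a lineage while their upstream sequences differ in the purine-rich core bound by PU.1, the product of Spi1 and a master regulator of macrophages. The sequences are from RefSeq (GRCm38.p6) and hold the 250 bases before the transcription start, written 5' to 3' on the strand of the gene. For Cx3cr1 this start is that of a shorter transcript, inside the gene span given above. Capitals mark GAGGAA or its reverse complement TTCCTC, searched on both strands without overlap with another motif. The windows are chr4:136886201-136886450 (minus strand) for C1qb, chr17:48346151-48346400 (plus strand) for Trem2 and chr9:120068297-120068546 (minus strand) for Cx3cr1.
C1qb: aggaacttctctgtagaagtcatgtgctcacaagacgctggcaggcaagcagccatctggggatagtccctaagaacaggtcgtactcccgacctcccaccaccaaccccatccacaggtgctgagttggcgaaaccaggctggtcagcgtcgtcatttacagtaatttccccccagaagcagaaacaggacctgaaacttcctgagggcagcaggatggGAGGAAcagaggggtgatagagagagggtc
Trem2: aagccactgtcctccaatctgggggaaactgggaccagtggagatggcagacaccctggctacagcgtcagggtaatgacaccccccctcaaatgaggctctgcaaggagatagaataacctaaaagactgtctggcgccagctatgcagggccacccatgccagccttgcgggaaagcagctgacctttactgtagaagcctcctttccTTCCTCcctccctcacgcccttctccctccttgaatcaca
Cx3cr1: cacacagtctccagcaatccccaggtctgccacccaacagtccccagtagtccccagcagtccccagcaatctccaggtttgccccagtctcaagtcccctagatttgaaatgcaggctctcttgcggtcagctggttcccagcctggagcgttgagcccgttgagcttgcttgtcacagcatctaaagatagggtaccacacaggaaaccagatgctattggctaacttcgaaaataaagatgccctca
In C1qb the motif begins 30 bases before the start, and in Trem2 its reverse complement begins 40 bases before it. The Cx3cr1 window holds neither. Windows were at hand for 6 of the 10 genes, and 4 of them (C1qb, C1qc, Aif1 and Trem2) hold the motif, against 23.3% of 32851 promoter windows of the same length. A match of these letters is not evidence of binding.

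The libraries fell into 2 batches that had to be inferred, since the labels do not give them. Batch 1 held 4 WT mice and all mice with the expanded allele, and batch 2 held the other 4 WT mice and the WT S776A homozygous mice. Between 62163600 and 88430180 fragments were counted on genes per library. Atxn1, the edited gene, had log2 fold changes against WT of 0.21 in SCA1, 0.27 in SCA1 S776A and 0.29 in S776A double mice. None was called (adjusted p = 0.453, 0.87 and 0.398, edgeR), but each had an unadjusted p under 0.05. In CPM (counts scaled to library size and a common total), WT mice of batch 1 were at 49.1 to 54.1. All SCA1 (55.2 to 63.9 CPM) and SCA1 S776A mice (55.3 to 67.0 CPM) were above them. S776A double mice, at 50.3 to 69.5 CPM, overlapped them. Ranges failed to overlap for 8.76% of all tested genes in SCA1 and 4.39% in SCA1 S776A mice. Total counts do not separate the alleles of Atxn1. The cerebellar origin was evident from Purkinje cell genes such as Calb1, at 1164 ± 34.3 CPM in the 4 WT mice of batch 1. The summed CPM of 8 choroid plexus genes ran from 33.2 to 5244 over the 24 mice.

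**Figure D1:**
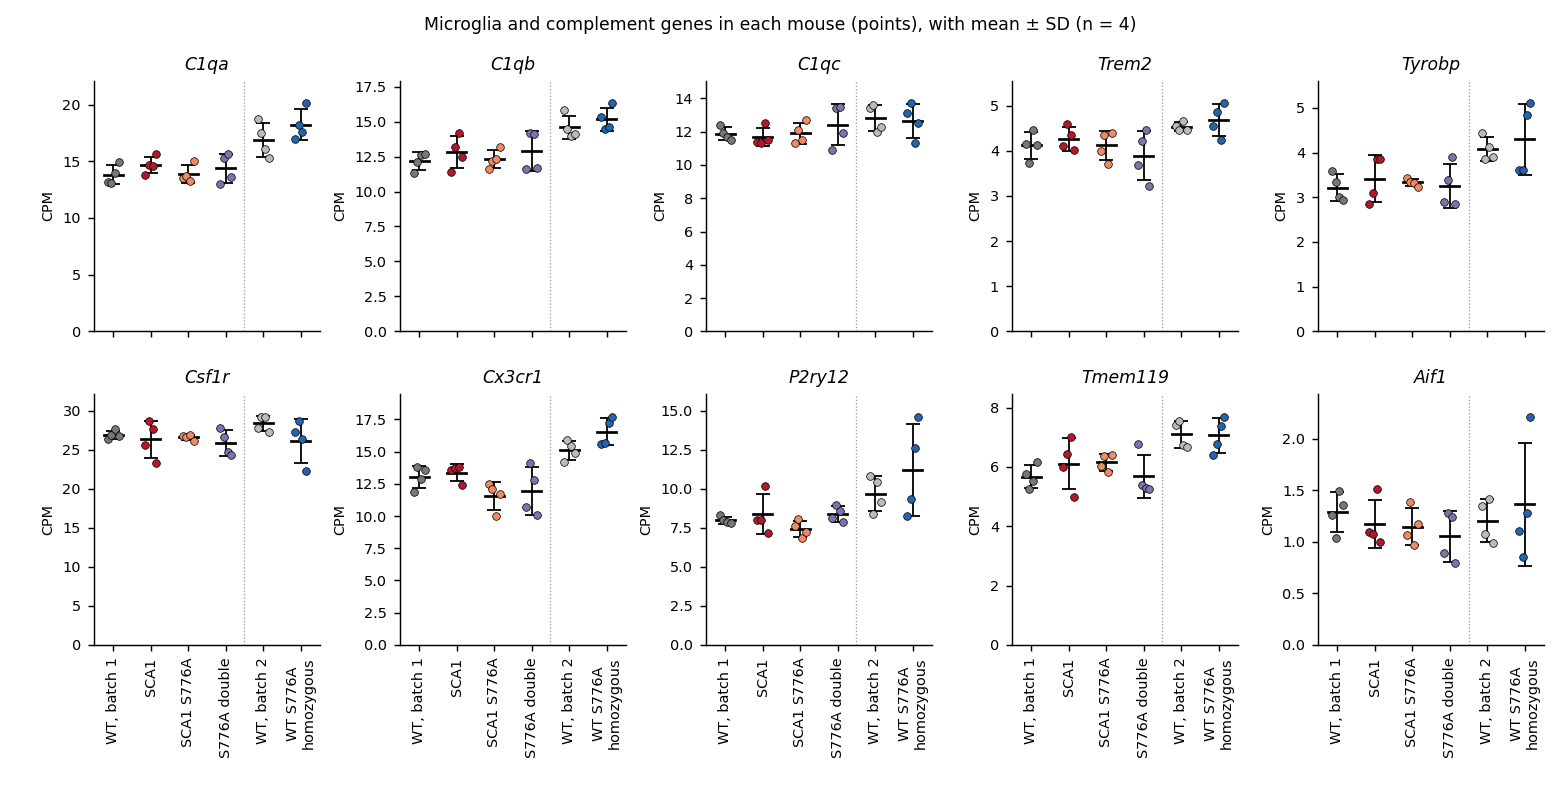
CPM of each of the 10 genes (vertical axes, from 0) in every mouse (points), by group, with the mean and SD of 4 mice (lines); the dotted line parts batch 1 from batch 2. Within a batch every mutant group overlaps its WT mice for every gene, while C1qa, C1qb, Cx3cr1, P2ry12, Tmem119 and Tyrobp are higher in all WT mice of batch 2 than in all WT mice of batch 1.

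The 3 chains of C1q, which assemble into 1 recognition molecule that binds antibodies, apoptotic cells and synapses, gave no call in any genotype. C1qa was at 13.2, 13.1, 14.0 and 14.9 CPM in the WT mice of batch 1 and at 13.8, 14.7, 14.6 and 15.6 CPM in SCA1 mice. It was at 13.5, 13.7, 13.3 and 15.0 CPM in the SCA1 S776A group and at 13.0, 15.3, 15.6 and 13.6 CPM in the S776A double group. The 4 groups overlapped throughout. In batch 2, C1qa was at 18.7, 17.5, 16.1 and 15.3 CPM in WT and at 17.0, 18.2, 17.6 and 20.1 CPM in WT S776A homozygous mice, which again overlapped. The log2 fold change of C1qa against WT was 0.09 in SCA1 (standard error 0.08, 95% interval -0.07 to 0.25, adjusted p = 0.82, edgeR), which limits the fold to between 0.953 and 1.19. It was 0.01 in SCA1 S776A, 0.06 in S776A double and 0.11 in WT S776A homozygous mice, each with a standard error of 0.08.

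C1qb and C1qc were as close to WT. C1qb was at 12.2 ± 0.65 CPM in the WT mice of batch 1, 12.8 ± 1.17 in SCA1, 12.4 ± 0.67 in SCA1 S776A and 12.9 ± 1.43 in S776A double mice (SD, n = 4 each). C1qc was at 11.9 ± 0.404, 11.7 ± 0.546, 11.9 ± 0.606 and 12.4 ± 1.27 CPM in the same order. The share of each chain differed little between the groups of a batch. Shares were taken of CPM per kb of the principal transcript, summed over the 3 chains. In the group means of batch 1, C1qa made up 38.4% to 39.7%, C1qb 32.5% to 33.1% and C1qc 27.2% to 28.8%. In batch 2 the share of C1qc was 26.4% ± 0.806 in WT and 25.1% ± 1.87 in WT S776A homozygous mice (SD, n = 4 each), and these ranges overlapped.

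TREM2, a lipid-sensing receptor, and TYROBP, the adaptor through which it signals, did not pass the test either. Trem2 was at 4.12 ± 0.306 CPM in the WT mice of batch 1, 4.27 ± 0.264 in SCA1, 4.12 ± 0.327 in SCA1 S776A and 3.89 ± 0.548 in S776A double mice (SD, n = 4 each). Tyrobp was at 3.22 ± 0.306, 3.41 ± 0.528, 3.34 ± 0.0782 and 3.26 ± 0.495 CPM in the same order. Their log2 fold changes in SCA1 mice were 0.05 (95% interval -0.15 to 0.26) and 0.09 (95% interval -0.18 to 0.36). In the S776A double mice both genes spread more widely than in WT, as Tyrobp also did in SCA1 mice. Replicate 4 of the S776A double mice was lowest for both, at 3.23 CPM of Trem2 and 2.84 CPM of Tyrobp. It was also lowest of its group for Aif1, Cx3cr1, P2ry12, Tmem119 and Csf1r.

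Csf1r encodes the receptor for CSF1 and IL-34 on which microglia depend, and in CPM it was the most abundant of the 10. The gene lies on chromosome 18 (61100598 to 61132149, plus strand). It was at 26.3, 26.9, 27.6 and 26.8 CPM in the WT mice of batch 1, at 25.6, 28.7, 27.7 and 23.3 CPM in SCA1 mice and at 26.7, 26.6, 26.9 and 26.1 CPM in SCA1 S776A mice. The WT and SCA1 S776A mice lay closest together, while SCA1 replicate 4 was lowest. In WT S776A homozygous mice it was at 27.2, 28.7, 26.3 and 22.2 CPM, against 27.8, 29.2, 29.2 and 27.3 CPM in WT. The ranges overlapped, with 1 of the 4 homozygous mice above the WT median, and the log2 fold change of -0.12 had the lowest p of the 10 genes in this comparison (95% interval -0.26 to 0.02, adjusted p = 0.526, edgeR).

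Among the receptors of the surveying state, Cx3cr1, which encodes the receptor of the neuronal ligand fractalkine, gave the only unadjusted p under 0.05 between genotypes. It was at 13.6, 13.7, 13.8 and 12.4 CPM in SCA1 mice and at 12.5, 12.1, 9.98 and 11.7 CPM in SCA1 S776A mice. The ranges met at their edges, with SCA1 replicate 4 just below SCA1 S776A replicate 1. The log2 fold change of SCA1 S776A against SCA1 mice was -0.21 (standard error 0.09, 95% interval -0.4 to -0.02, unadjusted p = 0.0297, adjusted p = 1.0, edgeR), and an exact two-sided permutation test gave p = 0.057, where 0.029 is the smallest that 4 mice against 4 allow. In this comparison 1 of 10 genes passed the unadjusted threshold, as did 4.35% of all tested genes, and 0.00444% of all tested genes were called. Without SCA1 S776A replicate 3 the log2 fold change was -0.14 (adjusted p = 1.0, edgeR). Over 18 alternatives, the unadjusted p of the fit was between 0.0186 and 0.145, and it was at or above 0.05 in 5. Against WT, whose batch 1 mice were at 11.9, 13.8, 12.9 and 13.6 CPM, Cx3cr1 differed by a log2 fold change of 0.04 in SCA1, -0.17 in SCA1 S776A and -0.13 in S776A double mice. The S776A double mice, at 10.7, 14.1, 12.8 and 10.1 CPM, overlapped every other group of their batch. In the comparison of SCA1 S776A with SCA1 mice, 6 of 10 border macrophage genes and 3 of 7 tested leukocyte genes also had an unadjusted p under 0.05, all upward, with medians over the lists of 0.39 and 0.46 and 0 calls, and their part in the Cx3cr1 value was not tested.

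P2ry12 encodes the purinergic receptor that guides microglial processes, and Tmem119 a membrane protein that sets microglia apart from other macrophages. P2ry12 was at 8.31, 7.98, 7.85 and 7.81 CPM in the WT mice of batch 1 and at 8.02, 8.02, 10.2 and 7.19 CPM in SCA1 mice, which lay on both sides of WT. In batch 2 it was at 10.8, 8.4, 10.4 and 9.15 CPM in WT and at 8.23, 9.32, 12.6 and 14.6 CPM in WT S776A homozygous mice. Here 2 homozygous mice were above and 2 below the WT median, and the log2 fold change of 0.2 had an interval of -0.07 to 0.48 (adjusted p = 0.554, edgeR). Tmem119 was at 5.67 ± 0.385 CPM in the WT mice of batch 1, 6.11 ± 0.852 in SCA1, 6.16 ± 0.281 in SCA1 S776A and 5.68 ± 0.727 in S776A double mice (SD, n = 4 each). Its log2 fold changes against WT were 0.11, 0.12, 0.0 and, in WT S776A homozygous mice, -0.01.

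Aif1, which encodes the actin-binding protein IBA1 used to stain microglia, was the scarcest and the most variable between mice. It had between 62 and 157 counts per library, and its log2 CPM varied among mice of a group by an SD of 0.33, against 0.1 to 0.2 for the other 9 genes. It was at 1.29 ± 0.191 CPM in the WT mice of batch 1, 1.17 ± 0.232 in SCA1, 1.14 ± 0.175 in SCA1 S776A and 1.05 ± 0.245 in S776A double mice (SD, n = 4 each). The log2 fold changes of -0.15, -0.18 and -0.3 had intervals that reached -0.61, -0.65 and -0.77, so a decrease of the size of the threshold is not excluded for this gene.

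**Figure D2:**
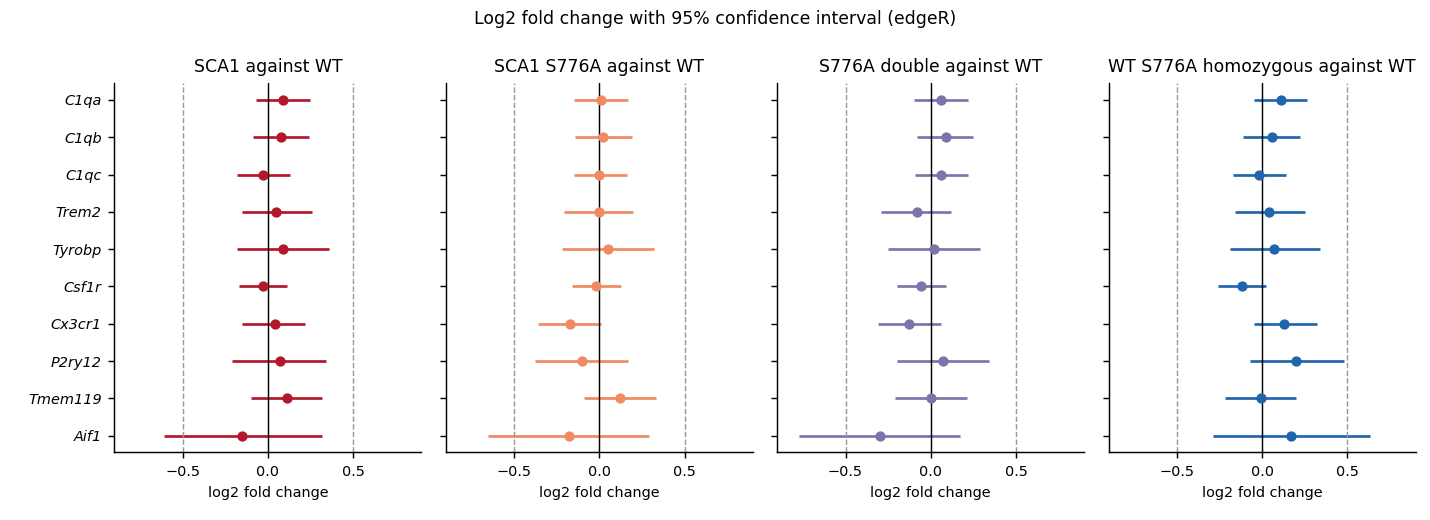
Log2 fold change (horizontal axes; points) of each gene against the WT mice of the same batch with its 95% confidence interval (lines), in 4 mutant genotypes; dashed lines mark 0.5 in either direction. Every interval includes 0, and 9 of the 10 stay between the dashed lines in each genotype, Aif1 being the exception.

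As a group the 10 genes centered on no change. Their median log2 fold change against WT was 0.06 for SCA1, 0.0 for SCA1 S776A, 0.01 for S776A double and 0.06 for WT S776A homozygous mice, beside medians over all tested genes of 0.0, 0.0, -0.0 and 0.01. The first 3 comparisons share the 4 WT mice of batch 1. Of the 10 genes, 7, 5, 6 and 7 were above 0, where 50.5%, 51.2%, 49.8% and 53.3% of all tested genes were. The ranges of mutant and WT mice failed to overlap for 0 of the 10 in each, and for 8.76%, 4.39%, 7.11% and 2.65% of all tested genes. The S776A double mice showed 0 of 10 genes called against SCA1 and 0 of 10 against SCA1 S776A mice, with 0.0% of all tested genes called in each. At an unadjusted p under 0.05, 0 of 10 passed in both, and 3.64% and 2.96% of all tested genes did.

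A single mouse weighed on the WT S776A homozygous group. Replicate 4 had the highest value of that group for 8 of the 10 genes, among them Aif1 (2.21 CPM), P2ry12 (14.6 CPM), C1qa (20.1 CPM) and Tyrobp (5.1 CPM), and the lowest for Csf1r (22.2 CPM). It also had the highest share of mitochondrial counts of all 24 mice, 6.73%, where the other mice had 3.01% to 4.82%. Without it the median log2 fold change of the 10 genes was -0.01. The part of RNA quality in these values was not tested.

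Between the WT mice of the batches, the genes differed more. Of the 10 genes, 9 were higher in batch 2, with a median log2 difference of 0.24, where 49.6% of all tested genes were higher. The ranges of 6 genes did not overlap, as for 46.7% of all tested genes, and 6 had an unadjusted p under 0.05, as did 51.9%. Tyrobp differed by 0.34 (3.22 ± 0.306 against 4.08 ± 0.269 CPM), Tmem119 by 0.32 (5.67 ± 0.385 against 7.1 ± 0.457 CPM) and C1qa by 0.3 (13.8 ± 0.833 against 16.9 ± 1.51 CPM; SD, n = 4 each). None was called, since no difference exceeded 0.5, while 17.6% of all tested genes were called. The red blood cell genes moved with this split, at a summed 86.9 to 104 CPM in batch 1 and 135 to 348 CPM in batch 2 (WT mice), and their part in it was not tested. Mutant groups were therefore tested against WT mice of their own batch.

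Per length of transcript, the order of the genes was the same at its head in every group. In the WT mice of batch 1, C1qa was highest at 13.3 ± 0.801 CPM per kb of the principal transcript, followed by C1qb at 11.2 ± 0.598 and C1qc at 9.87 ± 0.336 (SD, n = 4 each), with C1qb and C1qc meeting at 10.3 CPM per kb and C1qa above both in every mouse. Csf1r at 5.72 ± 0.114 and Tyrobp at 5.7 ± 0.543 CPM per kb came next and did not differ beyond their spread, on the unstranded count, which for Csf1r is lower than the sum of the strands by the factor given above. Trem2 at 3.79 ± 0.281 and P2ry12 at 3.41 ± 0.0966 CPM per kb overlapped, and so did Cx3cr1 at 2.9 ± 0.198 and Tmem119 at 2.53 ± 0.172 CPM per kb. Aif1 was lowest at 1.47 ± 0.218 CPM per kb. The place of Trem2 in this order depends on the transcript used. Its principal transcript has 1088 bases and its longest 4784, and the counts do not separate them.

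**Figure D3:**
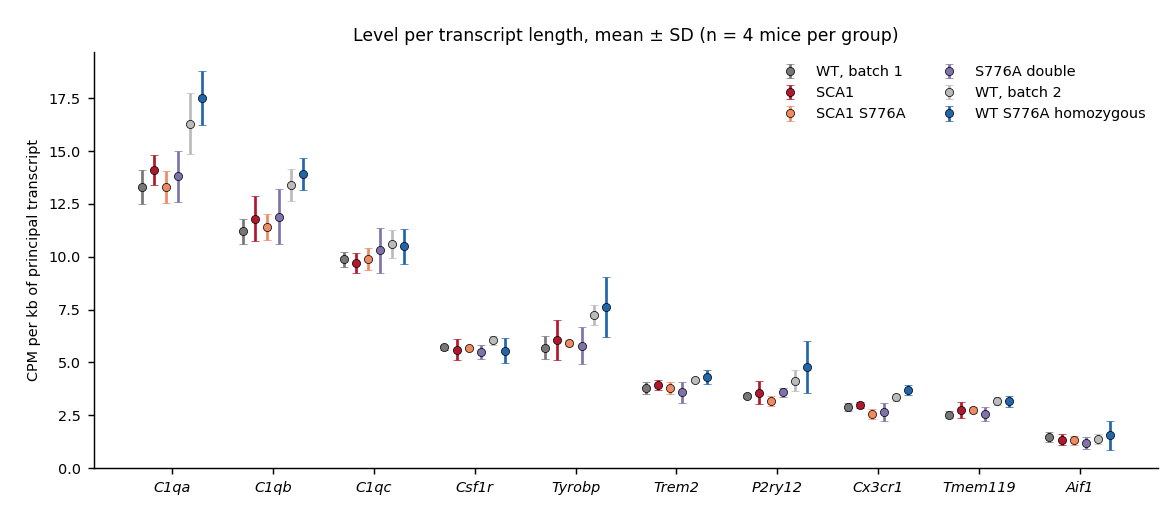
Mean CPM per kb of principal transcript (vertical axis, from 0) of the 10 genes in the 6 combinations of group and batch, with SD bars of 4 mice. The C1q chains lead in every group, from 9.7 to 17.5 CPM per kb, and Aif1 is lowest, from 1.2 to 1.55.

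Among mice of a group the genes varied together in part. After the mean of each group and batch was subtracted, the 45 pairs of genes had a median Pearson r of 0.3 over the 24 mice, and 38 pairs were above 0. The closest pairs were Aif1 with P2ry12 (r = 0.79), C1qa with C1qb (r = 0.74) and P2ry12 with Tyrobp (r = 0.67). Csf1r stood apart, with r = -0.15 with the mean of the 10 genes and -0.49 with Tyrobp. That mean was not scaled for the spread of each gene. Aif1, the most variable of the 10, followed it most closely (r = 0.91). The genes most like that mean were Stmn4, S100a13, Rtraf, 2610001J05Rik, Rpl6, Glo1, Mrpl49 and Fabp5 (r = 0.84 to 0.88), none of which is in the microglia lists, and the other 30 microglia genes had a median r of 0.34. These correlations are descriptions over libraries that share their normalization.

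Beyond the 10, the other microglia genes gave no call. Of 30, 0 were called in any mutant genotype, and an unadjusted p under 0.05 was reached by 1 in SCA1, 0 in SCA1 S776A, 2 in S776A double and 1 in WT S776A homozygous mice. Of all tested genes, 8.25%, 3.93%, 6.93% and 9.98% passed that threshold in this order. The median log2 fold changes of the 30 genes were 0.09, -0.02, -0.01 and 0.04. Mertk, a receptor for the uptake of dying cells, did not pass in any of them. Of 12 tested genes of TREM2-TYROBP signaling, 0 were called, and Cd300lb, at 0.177 ± 0.0401 CPM in SCA1 and 0.361 ± 0.169 CPM in WT (SD, n = 4 each), had the lowest p in SCA1 mice (log2 fold change -1.03, adjusted p = 0.408, edgeR). The inflammatory cytokine genes Il1b, Il6 and Tnf stayed below the filter, with at most 9, 5 and 4 counts in any library. Among the 10 tested cytokines and chemokines 0 passed even the unadjusted threshold in the comparisons with WT.

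The genes of disease-associated microglia had mostly positive fold changes in SCA1 mice and no call. Of 24, 19 were above 0 with a median log2 fold change of 0.12, where 50.5% of all tested genes were above 0. Of the 24, 5 had an unadjusted p under 0.05, all upward, a direction in which 3.93% of all tested genes passed. They include Ctsl and Ctsd, which encode the lysosomal proteases cathepsin L and D: Ctsl was at 118 ± 5.69 CPM in SCA1 and 102 ± 4.05 in WT (log2 fold change 0.21, adjusted p = 0.169), and Ctsd at 105 ± 9.55 and 89.2 ± 3.18 CPM (0.23, adjusted p = 0.281; SD, n = 4 each, edgeR). Other cell types moved the same way in these mice: 8 of 8 oligodendrocyte genes were above 0 (median 0.16, 2 with an unadjusted p under 0.05), as were 8 of 8 choroid plexus genes (median 1.24, 1 with an unadjusted p under 0.05). Their part in these values was not tested. The medians of the 24 genes against WT were -0.01 in SCA1 S776A, 0.02 in S776A double and -0.03 in WT S776A homozygous mice. Between the WT mice of the batches, 19 of the 24 were higher in batch 2 (median 0.25), as were 49.6% of all tested genes. An unadjusted p under 0.05 was reached there by 11 of the 24 and by 51.9% of all tested genes. Lpl, which encodes lipoprotein lipase, was at 6.36 ± 9.87 CPM in SCA1 S776A mice against 1.58 ± 0.251 in WT, so its spread exceeded its mean. The SCA1 S776A mice ran from 1.09 to 21.2 CPM, and 2 of the 4 were above the WT median (p = 0.8, exact two-sided permutation test).

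Outside C1q the complement genes gave 0 calls. Of 14 tested genes of the cascade, 0, 0, 1 and 2 had an unadjusted p under 0.05 in the order above. Over all tested genes, 8.25%, 3.93%, 6.93% and 9.98% passed this threshold in the same order. C4b, the complement component cleaved after C1q binds, was at 6.21 ± 0.845 CPM in WT S776A homozygous mice and 8.62 ± 1.47 in WT (SD, n = 4 each; log2 fold change -0.47, adjusted p = 0.485, edgeR). C1s1, a protease of the C1 complex, was at 0.241 ± 0.056 and 0.405 ± 0.124 CPM (-0.75, adjusted p = 0.485). Of 17 regulators and receptors, 2, 1, 2 and 5 had an unadjusted p under 0.05, and the 5 in WT S776A homozygous mice were 4 downward and 1 upward. Among the 4, Csmd1, a relative of Csmd3, was at 11.6 ± 2.01 CPM against 14.4 ± 0.502 in WT, and Vtn, which encodes vitronectin, at 68.6 ± 16.6 against 88.6 ± 6.0 CPM (SD, n = 4 each; adjusted p = 0.485 for both, edgeR). Csmd3, a large membrane protein with complement-control domains that neurons express, differed from WT by 0.42 on the log2 scale in SCA1 mice (adjusted p = 0.075, edgeR). It differed by 0.35 in SCA1 S776A and 0.3 in S776A double mice (adjusted p = 0.566, edgeR), and was not called in any genotype. Cd59a, an inhibitor of the membrane attack complex, was at 17.5 ± 1.83 CPM in SCA1 and 11.2 ± 2.26 in WT (0.64, adjusted p = 0.222).

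Of the 6 ligands of microglial receptors, Cd200, a neuronal surface protein that restrains microglia through its receptor, had the lowest adjusted p in SCA1 mice. It was at 34.6, 35.2, 34.2 and 32.8 CPM in the WT mice of batch 1, at 41.4, 40.3, 42.4 and 36.3 CPM in SCA1, at 41.1, 38.2, 37.8 and 40.2 CPM in SCA1 S776A and at 39.3, 38.7, 38.9 and 39.7 CPM in S776A double mice. All 12 mice with the expanded allele were above the 4 WT mice, which the comparisons share. The log2 fold changes were 0.23, 0.2 and 0.2 (adjusted p = 0.0576, 0.677 and 0.355, edgeR), and ranges failed to overlap in SCA1 mice for 8.76% of all tested genes (4.39% for SCA1 S776A, 7.11% for S776A double). In WT S776A homozygous mice Cd200 was at 47.8, 51.4, 49.6 and 52.0 CPM against 49.7, 45.0, 44.6 and 44.5 CPM in WT. These ranges overlapped, with all 4 homozygous mice above the WT median. The log2 fold change was 0.13 (95% interval 0.02 to 0.24, adjusted p = 0.485, edgeR), in the same direction as with the expanded allele. Cx3cl1, the fractalkine gene, was at 46.5 ± 3.65 CPM in SCA1 and 48.5 ± 1.08 in WT. The CSF1R ligands Csf1 and Il34 were at 24.3 ± 1.35 and 5.75 ± 0.568 CPM in SCA1 and 24.5 ± 2.87 and 6.05 ± 0.466 in WT (SD, n = 4 each). In S776A double mice Csf1 was lower, at 21.2 ± 1.2 CPM (SD, n = 4). Its log2 fold change against WT was -0.21 (95% interval -0.41 to -0.01, adjusted p = 0.702, edgeR), and the ranges overlapped. Its unadjusted p was under 0.05, as for 6.93% of all tested genes. Apoe, a lipid carrier and TREM2 ligand, and Tgfb1, which maintains microglial identity, stood at log2 fold changes of 0.09 and -0.24 for SCA1 mice (adjusted p = 0.848 and 0.659, edgeR).

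**Figure D4:**
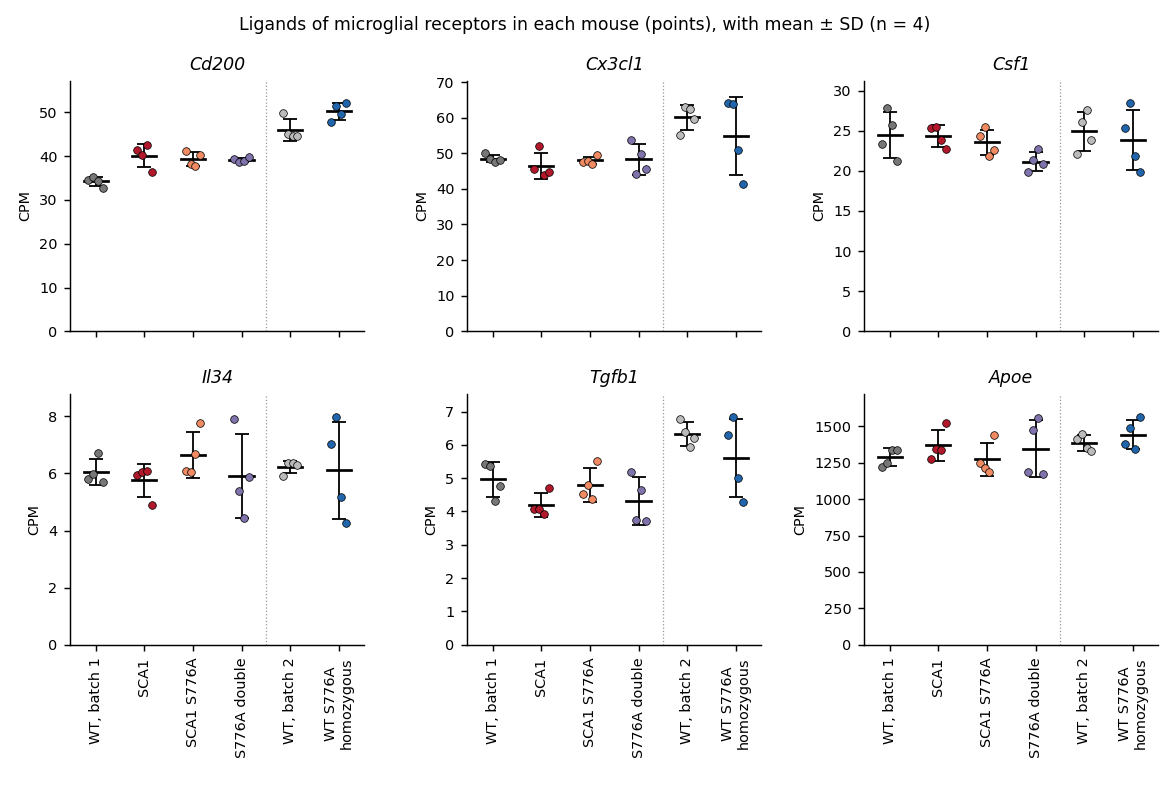
CPM of 6 ligand genes (vertical axes, from 0) in every mouse (points), with the mean and SD of 4 mice (lines); the dotted line parts the batches. Cd200 is above 36 CPM in every mouse with the expanded allele and at most 35.2 CPM in the WT mice of their batch, while the other 5 ligands overlap WT.

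The interferon response genes had positive fold changes in SCA1 S776A mice and no call. All 16 were above 0, with a median log2 fold change of 0.52, and 8 had an unadjusted p under 0.05, all upward, where 1.98% of all tested genes passed in that direction, but 0 were called. Oasl2, an antiviral interferon target, was at 3.86 ± 1.44 CPM against 2.47 ± 0.276 in WT, and Ifitm3, a restriction factor of viral entry, at 9.18 ± 1.39 against 7.18 ± 0.62 CPM (SD, n = 4 each; adjusted p = 1.0 for both, edgeR). The summed level of the list was 53.8 to 83.2 CPM in SCA1 S776A mice and 49.7 to 57.1 CPM in WT mice, which overlapped. The red blood cell genes moved with it: 5 of 5 had an unadjusted p under 0.05, and their summed level was 127 to 203 CPM against 86.9 to 104 CPM. Their part in the interferon values was not tested. Against WT, 14 of the 16 interferon genes were above 0 in SCA1 (median 0.22) and 12 in S776A double mice (median 0.09). In the WT S776A homozygous group 8 were (median 0.01). Between the WT mice of the batches, all 16 were higher in batch 2 (median 0.53), 8 with an unadjusted p under 0.05, and 4 were called. Of all tested genes, 51.9% passed that threshold there and 17.6% were called. A shift of this size thus also occurred without a difference in genotype.

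Markers of other macrophages and leukocytes were low. The 10 genes of border macrophages, which line the meninges and vessels and share Csf1r and Cx3cr1 with microglia, summed to 18.7 to 21.0 CPM in the WT mice of batch 1, 13.7 to 21.5 in SCA1, 20.6 to 25.8 in SCA1 S776A and 19.2 to 25.1 in S776A double mice. Of these 10, F13a1 and Lyve1 were among the 3 with an unadjusted p under 0.05 in SCA1 S776A mice, with log2 fold changes of 0.63 and 0.62 (adjusted p = 0.786 and 1.0, edgeR). In S776A double mice 2 of the 10 passed, also upward, and the median of the list was 0.2 in both genotypes. Of all tested genes, 3.93% passed in SCA1 S776A and 6.93% in S776A double mice. The 7 tested leukocyte genes summed to 1.16 to 4.36 CPM over all mice. The part of these cells in the values of the 10 genes was not tested.

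**Figure D5:**
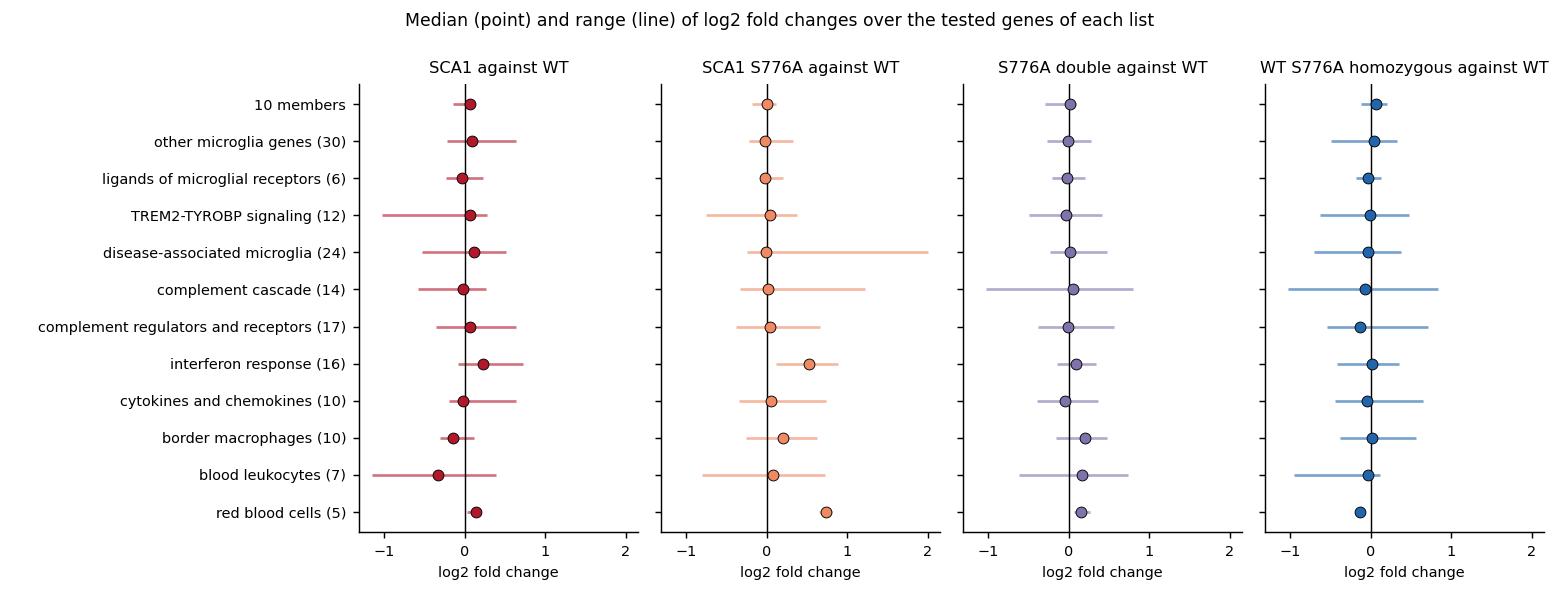
Median (points) and range (lines) of the log2 fold changes (horizontal axes) of the 10 genes and of 11 other gene lists, with the number of tested genes in parentheses, in 4 mutant genotypes against WT. The 10 genes center between 0.0 and 0.06 in all panels, and the interferon and red blood cell lists stand at 0.52 and 0.73 in SCA1 S776A mice.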

How the data were processed

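Per the labels and methods, reads were trimmed (Trimmomatic 0.36) and aligned (STAR 2.7.2d) to GRCm38.p6, and the authors deposited unnormalized counts of fragments per gene from before their batch correction. The unstranded counts were used. Of 54232 gene identifiers, 54165 matched GENCODE M21 without the version, and 1 other row is not used here.

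Batches were inferred by k-means (k of 2, 50 starts, silhouette 0.634) on 4 shares of fragments outside single genes. Counts of 22502 genes kept by filterByExpr were normalized by TMM and fitted in all 24 mice with edgeR 4.0.16 (R 4.3.3; robust quasi-likelihood; genotype and batch), with Benjamini-Hochberg adjustment over all tested genes and the thresholds of the study. Each mutant genotype lies in 1 batch, so it is set against the 4 WT mice of that batch. CPM used TMM library sizes, and log2 CPM a prior count of 2. Intervals are at 95%. Counting error, which covers only the sampling of fragments, was 2.24% (Csf1r) to 10.6% (Aif1). Nothing states whether libraries share a litter, so p-values measure the spread between these mice. For single genes, exact permutation tests (two-sided) were added.

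The 10 members and the 20 companion lists were chosen with earlier results of these data known. Named were the members, Atxn1, the ligands, in each other list the called genes, at most 3 of lowest p and 3 of highest mean CPM, and the 8 genes most correlated with the members' mean. The cytokine genes Il1b, Il6 and Tnf, below the filter, were named after their values were seen. Alternatives were no batch term, DESeq2 1.42.0, ComBat-seq (sva 3.50.0) before DESeq2, other filters, size factors and thresholds, stranded counts, Xist as a covariate, only the groups compared, leaving out each mouse, and a choroid plexus covariate chosen after seeing the data. The fit was first tested on simulated data.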

Additional observations from a re-analysis of the deposited data

Results flagged for a closer look

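Over the 10 genes and their median, 66 combinations with a group of 4 mice in 1 batch were examined, and 2 had a mouse far from the other 3 of its group, where chance alone gives 3.3. Cx3cr1 in SCA1 mice was lowest in replicate 4, at a log2 CPM of 3.63, with the others at 3.77 to 3.78. Tmem119 in S776A double mice was highest in replicate 1, at a log2 CPM of 2.77, with the others at 2.4 to 2.44. Without that mouse, Tmem119 had a log2 fold change of -0.21 between S776A double and SCA1 S776A mice (adjusted p = 0.995, edgeR).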

How the results depend on the processing

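No member was called under any alternative. Without the batch term, the median log2 fold change of the 10 genes against WT became -0.07 in SCA1, -0.12 in SCA1 S776A, -0.13 in S776A double and 0.16 in WT S776A homozygous mice. This fit sets each genotype against WT mice of both batches. In it 4 genes had an unadjusted p under 0.05 in WT S776A homozygous mice, C1qa with the lowest (log2 fold change 0.25, adjusted p = 0.0453, edgeR), as did Cx3cr1 in SCA1 S776A (-0.28, adjusted p = 0.209) and S776A double mice (-0.24, adjusted p = 0.228). At an unadjusted p under 0.05 as the only threshold, 1 member (Cx3cr1) passed between SCA1 S776A and SCA1 mice, and 5 of 18 alternatives took it above 0.05. Leaving out each mouse in turn moved the median against WT between 0.02 and 0.07 in SCA1, -0.03 and 0.02 in SCA1 S776A, -0.01 and 0.05 in S776A double and -0.01 and 0.1 in WT S776A homozygous mice. ComBat-seq before DESeq2, close to the procedure of the study, gave Cx3cr1 in SCA1 S776A (log2 fold change -0.17, adjusted p = 0.634) and Csf1r in WT S776A homozygous mice (-0.13, adjusted p = 0.255) an unadjusted p under 0.05. Of 1300 values of single members, 119 changed sign, and no call was at stake. No paired analysis was possible because the labels number no replicates; the numbers used here follow accession order and tie no mice together. For Aif1, the spread between mice, a coefficient of variation of 14.8% to 43.5% within groups, exceeded the counting error of 9.98% to 11.1%. The inferred batch holds WT as its only shared genotype, so WT S776A homozygous mice cannot be compared with the expanded genotypes within a batch.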

Other observations

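Oligodendrocyte genes, given above for SCA1 mice, and Purkinje cell genes are not among the microglia and complement lists. Of 8 oligodendrocyte genes all were above 0 in SCA1 mice, and Mbp, the myelin basic protein gene, was at 3824 ± 320 CPM against 3262 ± 233 in WT (SD, n = 4 each; log2 fold change 0.23, adjusted p = 0.233, edgeR). Of 8 Purkinje cell genes, 6 had an unadjusted p under 0.05 in SCA1 mice, all downward, where 8.25% of all tested genes passed in either direction, and 0 were called. Car8 was at 1434 ± 85.1 CPM against 1750 ± 81.0 in WT (SD, n = 4 each; -0.29, adjusted p = 0.096, edgeR). In the same mice the 10 microglia genes had a median log2 fold change of 0.06. The lists of endothelial cells, meninges, astrocytes and Bergmann glia, granule cells and proliferation had medians of -0.07, 0.04, -0.02, -0.08 and 0.19 in SCA1 mice, and choroid plexus genes 1.24, all with 0 calls.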
